A study of Mus musculus with 8 samples.

Results

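Klf2, Klf3, Klf4, Klf6, Klf7, Klf9, Klf10, Klf13 and Klf15 are 9 of the 17 genes of the Kruppel-like factor family that were looked for in mouse white fat. They were chosen by name among 37046 features in all, with earlier results of these data known. All 9 passed the filter on low counts that left 15184 genes for testing. RNA was sequenced from wild-type females of the inbred mouse strain C57BL/6J, with 4 libraries from a control group given phosphate-buffered saline and 4 of a group given endostatin at 50 mg/kg. The injections went into the tail vein, fat was collected 2 h afterwards, and food was withheld in between. Endostatin, a piece of collagen XVIII, is known for holding back the growth of blood vessels. Libraries 1 and 2 of each group carry the label batch 1 and libraries 3 and 4 the label batch 2. The tissue is labelled as the epididymal depot although the mice are female, and the labels do not say which animal each library came from. The p-values below therefore measure the spread between these libraries, which may be technical in part.

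Kruppel-like factors are transcription factors with zinc fingers that bind GC-rich and CACCC sequences and either activate or repress the genes nearby. In fat they act on the path from precursor to adipocyte: Klf4, Klf6, Klf9, Klf13 and Klf15 are known to promote it, and Klf2, Klf3 and Klf7 to restrain it. Klf2 and Klf4 are also known in endothelial cells, where blood flow induces them through the kinase ERK5 and MEF2 factors, and Klf9, Klf10 and Klf15 respond to hormones and the daily clock.

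The windows before the start sites show which of these inputs have a matching sequence at the members. RefSeq promoter windows on GRCm38.p6 held 8 of the 9 members; Klf10 was not among them. Within the 250 bases before the start, searched on both strands, a MEF2 site was found in Klf2 alone of the members, and an E-box, CACGTG, the element bound by clock factors, in Klf4, Klf6 and Klf15. These stretches are shown because they set those 4 members apart, with the matched element in capitals. The element starts 118 bases before the start of Klf2 (chr8:72318919-72318978, plus strand), 182 before that of Klf4 (chr4:55532627-55532682, minus strand) and 43 before that of Klf6 (chr13:5861421-5861476, plus strand). Klf15 (chr6:90462326-90462434, plus strand) has 2 E-boxes, which start 228 and 172 bases before its start.
Klf2: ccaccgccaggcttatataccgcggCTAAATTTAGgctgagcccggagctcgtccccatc
Klf4: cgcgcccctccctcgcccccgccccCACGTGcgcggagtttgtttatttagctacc
Klf6: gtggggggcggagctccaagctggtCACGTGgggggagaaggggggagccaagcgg
Klf15: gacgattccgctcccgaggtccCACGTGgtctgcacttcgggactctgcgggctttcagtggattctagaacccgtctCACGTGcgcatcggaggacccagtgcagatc

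The MEF2 site was present in 2.92% of all 32851 windows of this length, and the E-box in 6.02%. The GC box GGGCGG was found in 7 of the 8 members and in 32.7% of all windows, and CACCC in 6 members and 52.0% of windows. The core of the cyclic AMP response element, TGACG, stood in 5 members (Klf2, Klf4, Klf9, Klf13 and Klf15) and in 17.8% of windows. No member held the serum response CArG box (1.47% of windows) or the glucocorticoid response element AGAACANNNTGT (0.368%). The elements printed above overlapped no other motif searched; in Klf3 and Klf13, 1 GC box in each overlapped a CACCC. A match describes the letters in the window and is not a binding site.

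Depth and tissue makeup varied between the libraries. Total estimated counts were 15826783 to 19221886 in control and 17197721 to 23786594 in endostatin, so that a count of 0 allows up to 0.126 to 0.190 CPM (counts scaled to library size; 3 counts, for counting error only), far below the members' levels. Control 3 and endostatin 4 stood apart on the first principal component, which held 33.7% of the variance (71.5 and 48.8, against -34.0 to -6.60 in the other 6 libraries). On the second component these 2 libraries lay far apart, at -38.7 and 45.1. Among 6 oviduct and uterus markers the summed level was 411 TPM in control 3 and 348 in endostatin 4, and 4.49 to 26.0 elsewhere. In endostatin 4 most of that sum was Ltf, at 298 TPM, with Pgr at 5.08 and Msx1 at 11.6. In control 3, Msx1 was at 162 TPM, Pgr at 97.2 and Ltf at 87.9. The 3 brown adipocyte markers summed to 142 TPM in control 3 and 35.6 in endostatin 4, against 3.10 to 21.8 elsewhere. Values without that pair are given beside the results below that moved most with it. The 7 hepatocyte markers ran from 12.3 to 125 TPM in control and from 19.9 to 891 in endostatin. The 6 skeletal muscle markers were at 198 TPM in control 1 and 391 in control 4, against 33.3 to 105 in the other 6 libraries. The 6 adipocyte markers summed to 9983 to 18950 TPM in control and 14110 to 17540 in endostatin, and no defining fat marker was at 0. The 5 markers of mammary epithelium stayed at or below 1.21 TPM, with 2 of them at 0 in every library. In bulk tissue, fewer cells of a type and less RNA per cell cannot be told apart.

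**Figure D1:**
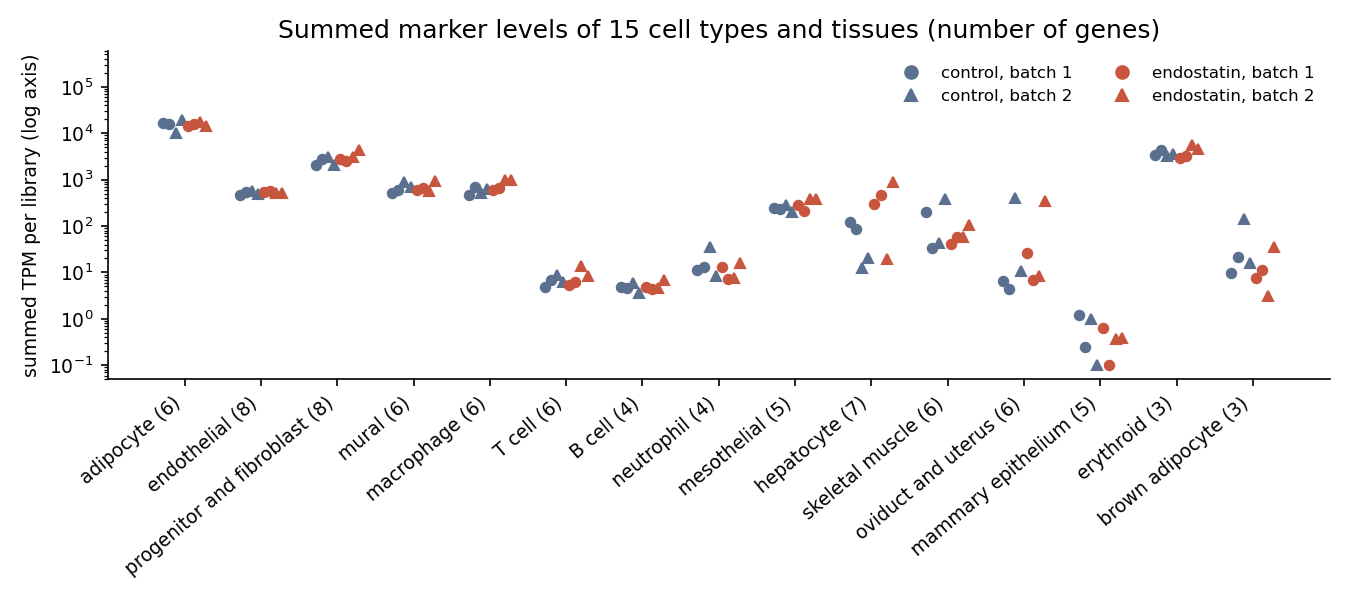
Summed TPM (length-corrected abundance, log axis) of the marker genes of 15 cell types and tissues, 1 point per library, coloured by group and shaped by batch, with the number of genes in brackets. Adipocyte markers lie highest, at 9983 to 18950 TPM. The oviduct and uterus sum stands out in control 3 (411) and in endostatin 4 (348, mostly Ltf).

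Levels can be compared between genes only per length, so they are given in TPM, a length-corrected transcript abundance summed over each gene's annotated transcripts. Klf15, a driver of amino acid and lipid metabolism, had the highest median over the 8 libraries at 113 TPM, and Klf9 followed at 108 TPM. Klf13 had 90.8 TPM, Klf3 80.7, Klf2 70.04, Klf6 66.3, Klf4 44.1, Klf10 37.6 and Klf7 20.2. Among all genes tested, Klf15 stood at the 91.6th percentile by TPM and Klf7 at the 55.7th. The 9 members together held 88.3% to 94.4% of the summed TPM of the 17-gene family in each library, lowest in control 3.

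Neighbours in this order were close. No pair of the 8 differed past the threshold of 0.05 in an exact sign-flip test (two-sided) of the log2 TPM ratio over the 8 libraries, with Benjamini-Hochberg adjustment over the 8 pairs. By this exact test the widest gap separated Klf10 from Klf7, with Klf10 higher in 8 of 8 libraries by 0.90 ± 0.34 (SD) on the log2 scale, p = 0.0078, adjusted p = 0.0625; this p is the smallest that 8 libraries allow. Klf6 exceeded Klf4 in 7 of 8 libraries (0.49 ± 0.36, adjusted p = 0.0833), and Klf15 exceeded Klf9 in only 5 of 8 (0.03 ± 0.12, adjusted p = 0.453).

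The order depended on how Salmon, the program that assigned reads to transcripts, had shared them out. Short annotated transcripts take few reads but much TPM, because TPM divides by length. Klf3-201, the main Klf3 transcript of 5221 bases, held 72.1% to 78.0% of the reads of Klf3 but 34.7% to 49.5% of its TPM. Transcripts of non-coding type, mostly retained introns, made up 21.9% to 38.9% of Klf3 TPM. For Klf13, transcripts under 1000 bases held 34.0% to 47.1% of TPM although Klf13-201 took 94.8% to 96.8% of reads. Klf2 has 1 annotated transcript and is free of this effect.

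With the most-read transcript of each gene alone, a comparison added after the data were seen, the medians were 101 TPM for Klf9, 86.9 for Klf15, 70.04 for Klf2, 56.4 for Klf13, 48.2 for Klf6, 41.6 for Klf4, 35.4 for Klf3, 26.8 for Klf10 and 13.9 for Klf7. Klf9 then lay above Klf15 in 8 of 8 libraries (0.28 ± 0.14, adjusted p = 0.0208, exact test), and 6 of the 8 neighbour pairs passed the threshold. The pairs that did not were Klf15 and Klf2 (adjusted p = 0.211) and Klf6 and Klf4 (adjusted p = 0.0804). Klf3 dropped from the fourth place to the seventh. With protein-coding transcripts alone, Klf2 and Klf3 changed places and 4 pairs passed. Klf7 was lowest and Klf10 next lowest in each of these orders.

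**Figure D2:**
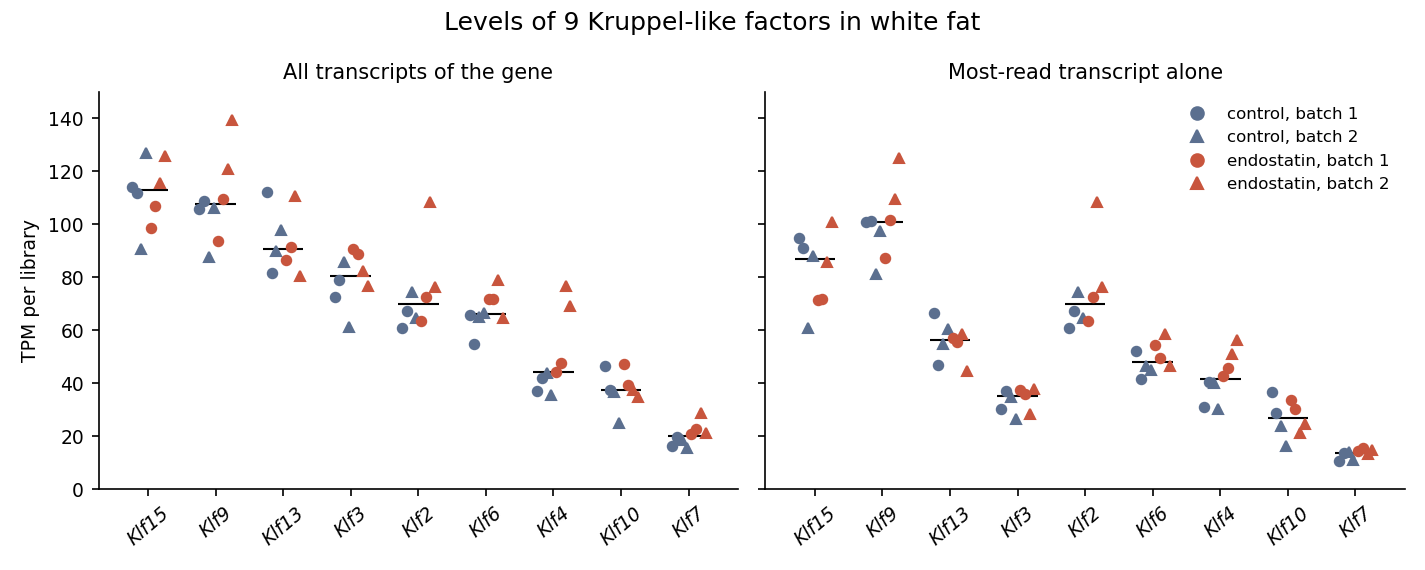
TPM per library for the 9 genes, ordered by the median of the summed level; left, all annotated transcripts of the gene, and right, the most-read transcript alone. Bars mark the median of 8 libraries. Klf3 has a median of 80.7 TPM on the left and 35.4 on the right, and Klf9 overtakes Klf15.

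In single libraries a few reads on a short transcript took a large part of the gene's TPM. Klf4-202, of 522 bases, held 20.7 TPM from 67.5 estimated reads in endostatin 3, 8.49 TPM in endostatin 4 and at most 2.86 TPM in the other 6 libraries. Klf4, the gene, had 76.9 TPM in endostatin 3, of which the 3029-base main transcript Klf4-201 made up 51.0. Klf7-203, of 553 bases, held 7.83 TPM from 28.1 reads in endostatin 3 and was listed at 0 in the other 7. Klf10-205 held 16.0 TPM from 54.4 reads in endostatin 3 and 3.74 TPM in control 4, and was listed at 0 elsewhere. Klf10-206, of 530 bases, was listed at 0 in endostatin 3 and held 4.24 to 11.2 TPM in the other 7, and the summed Klf10 level in endostatin 3, 37.5 TPM, was close to its median. Endostatin 3 was the library with the most reads on Klf4-202, Klf7-203 and Klf10-205. The comparisons between groups below therefore use CPM scaled by TMM factors, in which such reads weigh no more than others.

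**Figure D3:**
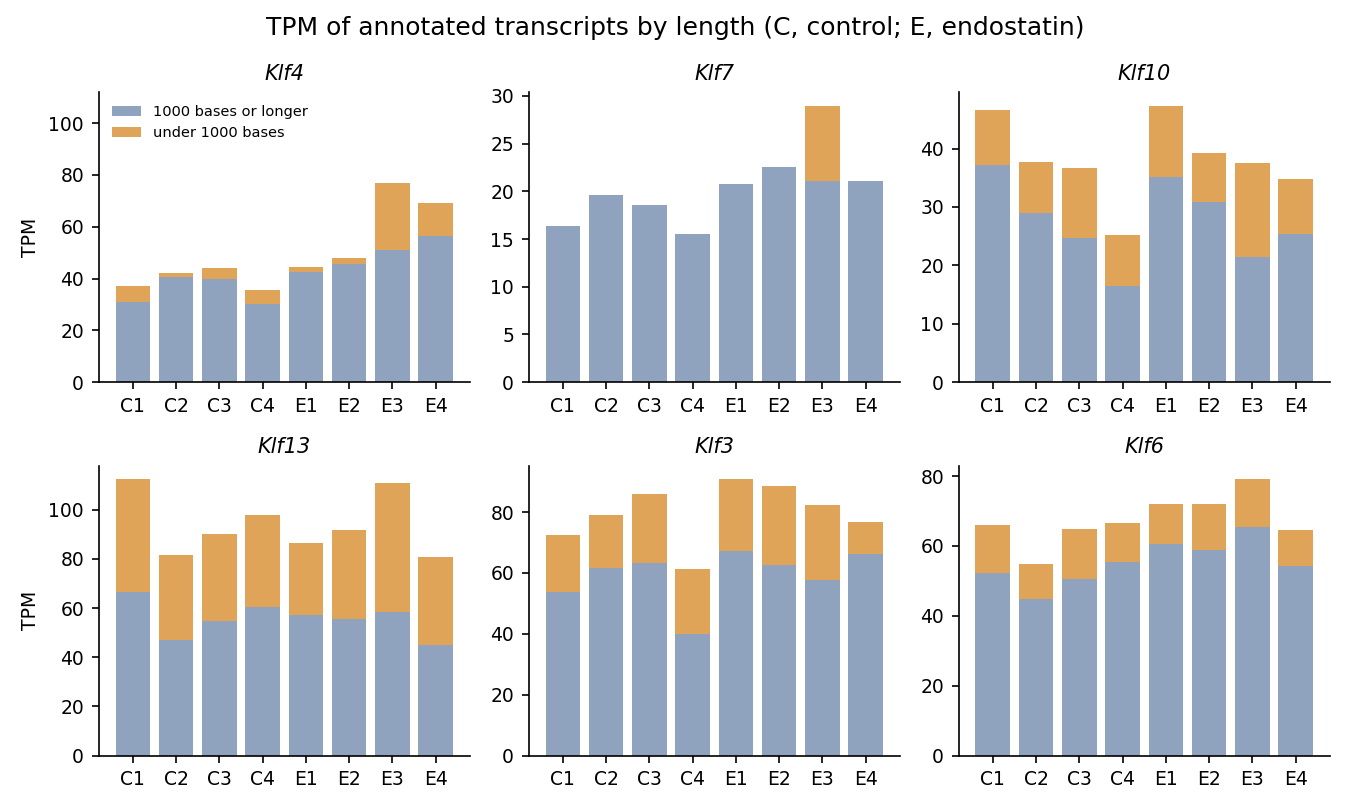
TPM of transcripts of at least 1000 bases (lower, blue) and under 1000 bases (upper, orange) for 6 members in each library, C for control and E for endostatin. The orange part of Klf4, Klf7 and Klf10 is tallest in E3, where the short transcripts held up to 33.7%, 27.0% and 42.7% of the gene's TPM.

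Endostatin against control asks which members differ 2 h after the injection. Among the 9 members, 7 were higher and 2 lower with endostatin, with a median log2 fold change of 0.11. With single libraries left out the median ran from 0.03 (without endostatin 4) to 0.17 (without control 1), and it was 0.05 without endostatin 3; with sample weights 5 members were higher. Over all 15184 genes, 46.6% were higher and the median was -0.01. By edgeR's quasi-likelihood test with a batch term, 0 of the 9 passed an adjusted p of 0.05, as did 0% of all genes; DESeq2 and limma-voom, with and without sample weights, also called 0 members. At an unadjusted p under 0.05 there were 2 members, Klf4 and Klf7, both higher, against 3.19% of all genes in either direction and 2.3% for higher alone. No member had groups that did not overlap, a state met by 1.64% of all genes. Because the members were chosen with earlier results known, these shares of all genes are not an independent comparison. The 95% intervals of the members reached 0.30 on either side of the estimate at the median (0.19 to 0.40), before any adjustment over the genes tested. Every adjusted p of a member was 0.9999.

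Klf4, which acts early in adipogenesis and in endothelium, had 58.8, 71.9, 59.7 and 54.6 CPM in control 1 to 4. In endostatin 1 to 4 it had 71.7, 78.8, 89.5 and 93.0 CPM. The groups met at 1 point only: endostatin 1 lay just below control 2, and the other 3 endostatin libraries lay above every control. The log2 fold change was 0.44 ± 0.12 (SE; 95% interval 0.16 to 0.72), unadjusted p = 0.0072 and adjusted p = 0.9999. It was 0.20 ± 0.13 within batch 1 and 0.68 ± 0.13 within batch 2. The interaction of batch and treatment was 0.47 ± 0.19 (unadjusted p = 0.0416, adjusted p = 0.997). Over 25 alternatives the value ranged from 0.33 to 0.55 with adjusted p from 0.506 to 1, and the unadjusted p was under 0.05 in 24. The exception was the fit without control 1 and control 4 (0.33, unadjusted p = 0.0752). Without control 3 and endostatin 4 it was 0.37 (unadjusted p = 0.0301).

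Sums of cell type markers followed the Klf4 values in part. The 6 macrophage markers, all of which were higher with endostatin, summed to 467, 695, 520 and 629 TPM in control 1 to 4. In endostatin they summed to 595, 651, 1003 and 982, highest in the same 2 libraries as Klf4. The 5 mesothelial markers, all of them also higher, summed to 197 to 287 TPM in control and to 284, 215, 377 and 377 in endostatin 1 to 4. The 8 markers of progenitors and fibroblasts, again all higher, summed to 2050 to 3154 TPM in control and 2468 to 4273 in endostatin. Their highest sum was in endostatin 4. The control highs of the mesothelial and progenitor sums, 287 and 3154 TPM, were both in control 3, where Klf4 was at 59.65 CPM. The 3 erythroid markers summed to 5630 TPM in endostatin 3 and 4560 in endostatin 4, against 2928 (endostatin 1) to 4273 (control 2) elsewhere. The 8 endothelial markers were close, at 466 to 557 TPM in control and 516 to 578 in endostatin. None of these marker genes was at 0 in every library, and their part in the Klf4 values was not tested.

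Klf2, the flow-induced endothelial factor that restrains adipogenesis, had 64.6, 68.5, 63.1 and 65.6 CPM in control, the tightest group of any member. Endostatin 1 to 4 had 61.3, 71.5, 103 and 70.7 CPM. Endostatin 3 was far above the rest, endostatin 1 lay below all controls, and the groups overlapped. The log2 fold change was 0.21 ± 0.15 (95% interval -0.12 to 0.55, unadjusted p = 0.179). Without endostatin 3 it was 0.05 (unadjusted p = 0.642). Within batches the differences were -0.00 and 0.43, and their difference of 0.44 ± 0.26 was not past the threshold (unadjusted p = 0.143).

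Of the inputs to these endothelial factors, all 8 listed genes of the ERK5 and MEF2 route were tested; 3 were higher and 5 lower with a median of -0.04, and none passed. Mef2d, a MEF2 factor, was at -0.06 ± 0.08, and Mapk7, which encodes ERK5, at -0.09 ± 0.15. Of the 7 listed vascular targets of Klf2 and Klf4, 6 were tested, 4 of them higher, with a median of 0.06. The list was not split into induced and repressed targets, so this count does not measure target activity. Thbd, which encodes the anticoagulant thrombomodulin, had 268, 253, 270 and 320 CPM in control and 310, 270, 495 and 358 in endostatin. Its highest value was in endostatin 3, as for Klf2, and the groups overlapped (0.34 ± 0.15, unadjusted p = 0.0490). Without endostatin 3 the Thbd log2 fold change was 0.20, and its unadjusted p was under 0.05 in 11 of 25 alternatives. Ptgds, a prostaglandin synthase, was at -1.89 ± 0.70 (unadjusted p = 0.0269) on 0.44 to 2.86 CPM in control and 0.11 to 0.90 in endostatin.

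Klf7, a restrainer of adipogenesis, had 57.0, 68.5, 57.8 and 55.5 CPM in control and 69.0, 75.8, 66.1 and 67.6 in endostatin. Control 2 lay among the endostatin libraries, and the other 3 controls lay below all of them. The log2 fold change was 0.22 ± 0.08 (95% interval 0.03 to 0.41, unadjusted p = 0.0275). It was alike in both batches, at 0.21 and 0.24, and the unadjusted p stayed under 0.05 in 17 of 25 alternatives. Klf7 had the smallest spread of the members, an SD of 0.16 in log2 CPM over the 8 libraries.

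Klf3, a repressor that works through CtBP cofactors, had 134, 149, 125 and 108 CPM in control and 149, 146, 116 and 140 in endostatin. The ranges overlapped, with control 4 lowest, and the log2 fold change was 0.10 ± 0.09 (unadjusted p = 0.345). It was 0.03 without endostatin 4, 0.05 without control 4 and 0.19 on log2(TPM + 0.5). Ctbp2, which encodes such a cofactor, was at -0.17 ± 0.18, with 61.4 CPM in control 3 and 33.1 to 46.0 in the other libraries. Hdac3, a histone deacetylase, was at -0.16 ± 0.10. All 12 listed cofactors were tested, 4 higher and 8 lower, with a median of -0.02 and none past the threshold.

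Klf6, which promotes adipogenesis by repressing Dlk1, had 142, 110, 104 and 123 CPM in control and 137, 130, 146 and 114 in endostatin. The ranges overlapped almost fully (0.14 ± 0.12, unadjusted p = 0.291), and without endostatin 3 the log2 fold change was 0.05. Dlk1, the preadipocyte factor, had 1.60 to 3.01 CPM in control and 2.62 to 4.54 in endostatin (0.55 ± 0.30, unadjusted p = 0.110). Cebpd, an early adipogenic factor, had 31.5, 25.02, 42.0 and 46.3 CPM in control and 18.8, 34.5, 89.8 and 87.1 in endostatin. Its high libraries were endostatin 3 and 4, the same as for Klf4, and the groups overlapped (0.47 ± 0.27, unadjusted p = 0.122). Without control 3 and endostatin 4 the value was 0.27, without control 3 alone 0.30 and without endostatin 1 0.73. Of 11 adipogenic partners and targets, 4 were higher and 7 lower, with a median of -0.01.

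Klf9, a glucocorticoid-responsive promoter of adipogenesis, had 285, 275, 184 and 265 CPM in control and 225, 268, 280 and 311 in endostatin. Control 3 was lowest of all, endostatin 4 highest, and the ranges overlapped. The log2 fold change was 0.11 ± 0.17 (unadjusted p = 0.551), and without control 3 and endostatin 4 it was -0.10. Within batch 1 it was -0.18 and within batch 2 it was 0.40; the difference of 0.58 ± 0.29 had an unadjusted p of 0.0860.

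Klf15 had 159, 148, 98.3 and 167 CPM in control and 123, 137, 142 and 152 in endostatin. Control 3 was lowest, and the other 3 controls overlapped the endostatin libraries. The log2 fold change was -0.05 ± 0.17 (95% interval -0.44 to 0.35, unadjusted p = 0.790). Without control 3 it was -0.23 (unadjusted p = 0.0223, adjusted p no lower than 0.631 in any alternative). Control 3 also had the lowest adipocyte marker sum, 9983 TPM against 14110 to 18950 elsewhere; the part of that in the Klf9 and Klf15 values was not tested.

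Of 5 metabolic targets of Klf15, 0 were higher and 5 lower, with a median of -0.30 and none past the threshold. Bcat2, which starts the breakdown of branched-chain amino acids, had 224, 273, 114 and 259 CPM in control and 155, 165, 181 and 178 in endostatin. Control 3 was lowest and the other 3 controls exceeded all endostatin libraries (-0.34 ± 0.25, unadjusted p = 0.210). The value was -0.61 without control 3 (unadjusted p = 0.00042), -0.60 without control 3 and endostatin 4, -0.15 without control 4 and -0.48 with sample weights; its adjusted p was 0.471 to 1 over all alternatives. Prodh, a proline-degrading enzyme, was at -0.27 ± 0.24, and at 0.064 without control 1 and control 4. Prodh, Gpt, a transaminase, and Slc2a4, the insulin-responsive glucose transporter, were highest in these controls. These controls had the most muscle markers, whose part in the values was not tested. Endostatin 4 was the lowest library for Gpt (49.9 CPM), Slc2a4 (136 CPM), Prodh (25.3 CPM) and Acss2 (46.3 CPM), the other target. Gpt was at 0.01 within batch 1 and -0.45 within batch 2, and Acss2 at -0.02 and -1.15. Bcat2 went the other way, at -0.63 and -0.05, as did Prodh, at -0.46 and -0.08. Of 8 glucocorticoid response genes, 4 were higher and 4 lower, with a median of -0.04; Dusp1, a phosphatase of MAP kinases, was at 0.40 ± 0.25 and Sgk1, a kinase, at -0.24 ± 0.20.

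The 16 clock genes were tested because Klf9, Klf10 and Klf15 follow the clock in other tissues; 4 were higher and 12 lower, with a median of -0.19. Clock, an E-box binding activator, was at 0.22 ± 0.08 (unadjusted p = 0.0326) and Cry1, a clock repressor, at -0.46 ± 0.18 (unadjusted p = 0.0353). Cry1 had 15.8, 10.3, 10.2 and 9.59 CPM in control and 11.0, 10.9, 6.84 and 5.53 in endostatin, so that its low libraries were endostatin 3 and 4. On log2(TPM + 0.5) Cry1 was at -0.15, and with transcript length offsets at -0.23. Without control 3 and endostatin 4 it was at -0.33. Over 25 alternatives the unadjusted p was under 0.05 in 11 for Cry1 and in 16 for Clock. None of the 16 clock genes passed the adjusted threshold. The lean to lower values was uneven between batches. Dbp was at 0.07 within batch 1 and -0.81 within batch 2, and Per3 at 0.05 and -0.56. Endostatin 4 was the lowest library for both, at 80.8 CPM for Dbp and 61.0 CPM for Per3. Arntl, Clock, Per1 and Bhlhe40 went the other way, with a higher value within batch 2 than within batch 1.

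Klf13, which acts upstream of Pparg, had 280, 192, 185 and 244 CPM in control and 218, 218, 224 and 166 in endostatin. Endostatin 4 was lowest and control 1 highest, and the other endostatin libraries lay inside the control range (-0.13 ± 0.16, unadjusted p = 0.459). Klf10, the TGF-beta-inducible early gene, had 69.95, 52.9, 37.8 and 30.5 CPM in control and 60.4, 54.2, 38.4 and 42.0 in endostatin. The groups overlapped fully (0.07 ± 0.13, unadjusted p = 0.626).

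Of 12 TGF-beta pathway genes, 8 were higher and 4 lower, with a median of 0.08. Tgfb3, a ligand, was at 0.22 ± 0.09 (unadjusted p = 0.0429) and Tgfbr2, a receptor, at 0.18 ± 0.13. For Tgfb3 the unadjusted p was under 0.05 in 9 of 25 alternatives. Several Kruppel-like factors are themselves early response genes, and of 14 immediate early genes 11 were higher and 3 lower, with a median of 0.29. Egr2, which acts with Klf4 on Cebpb in early adipogenesis, had 1.25, 1.40, 0.77 and 2.08 CPM in control and 4.86, 2.92, 3.37 and 2.28 in endostatin. Every endostatin library lay above every control (1.27 ± 0.37, unadjusted p = 0.00996), and 1.64% of all genes had groups that did not overlap. Cebpb itself was at -0.03 ± 0.16 (unadjusted p = 0.843), with -0.37 within batch 1 and 0.31 within batch 2. Fosb, an AP-1 subunit, was at 1.20 ± 0.42 (unadjusted p = 0.0219). No gene of these lists passed the adjusted threshold.

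**Figure D4:**
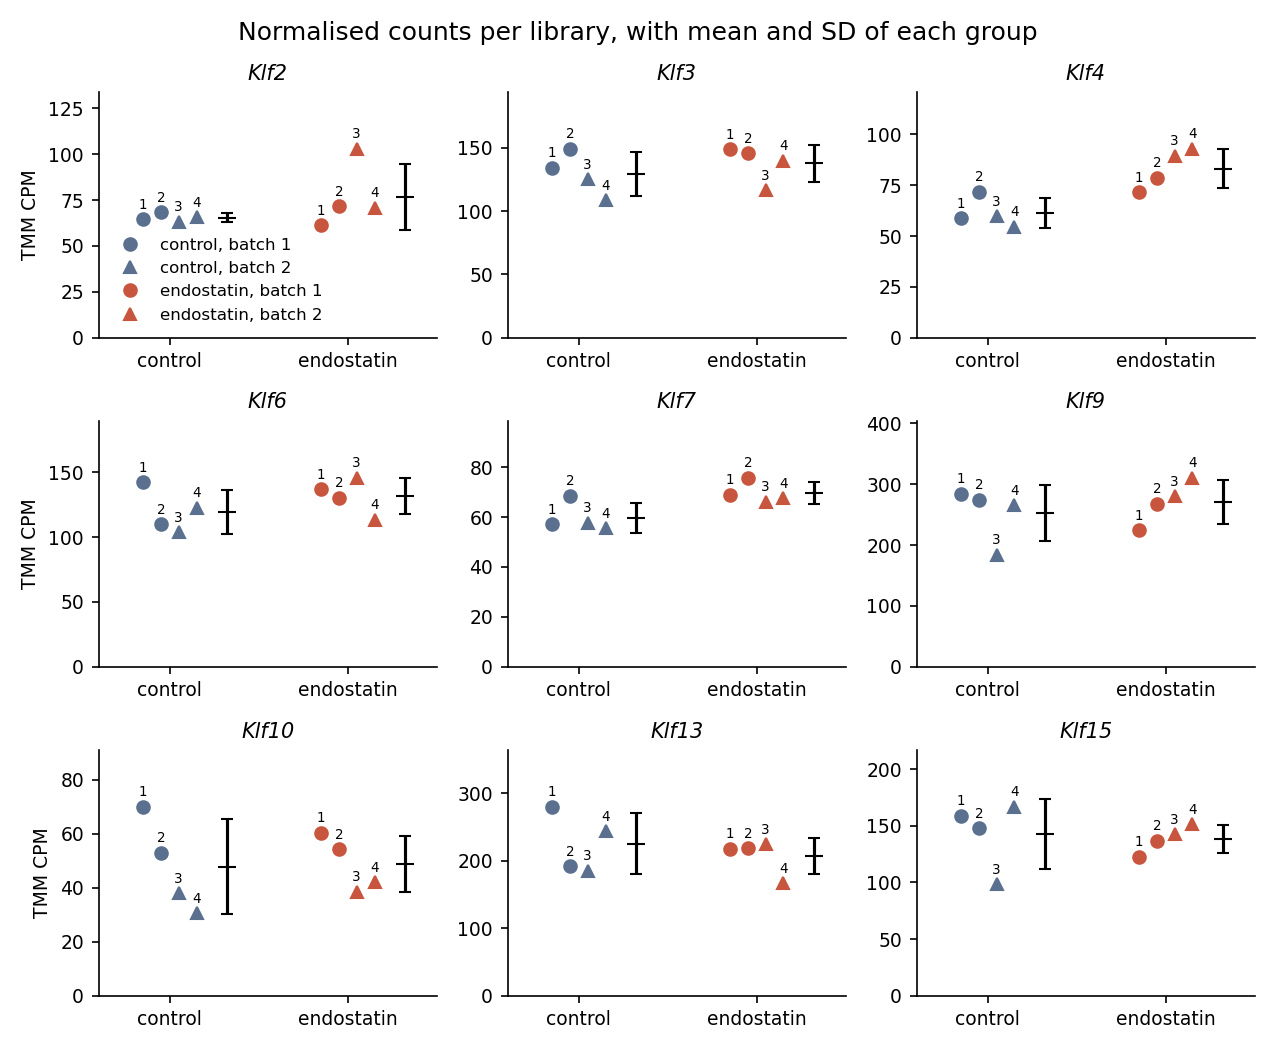
TMM-scaled CPM of the 9 members in each library (numbered; circles batch 1, triangles batch 2), with the mean and SD of each group of 4 in black. The groups overlap for every member; Klf4 comes closest to separating, and Klf10 is lower in batch 2 than in batch 1 in both groups.

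**Figure D5:**
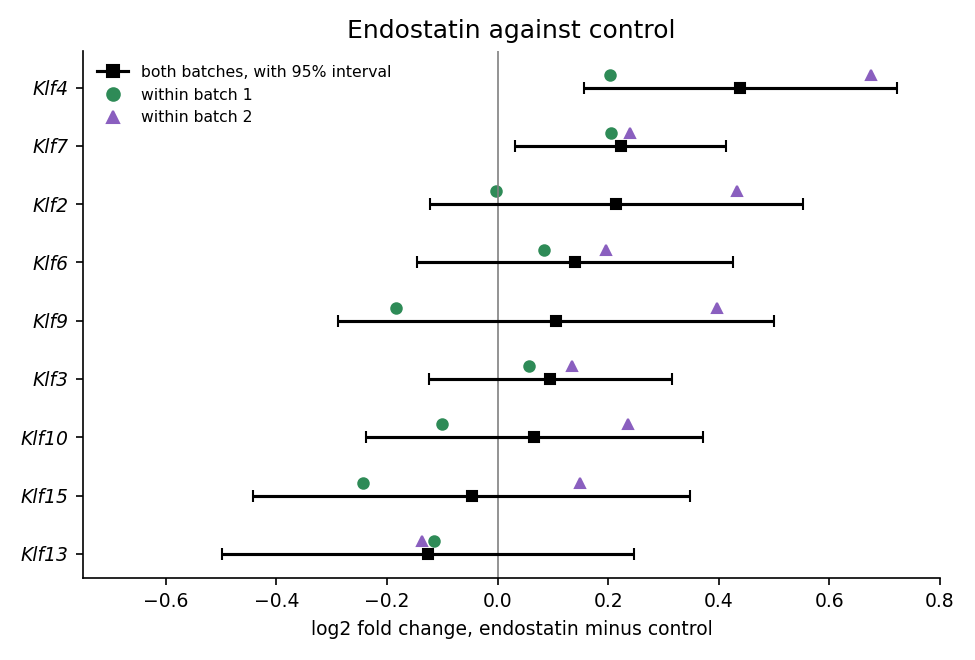
Log2 fold change of each member with endostatin and its 95% interval (black), and the value within batch 1 (green) and batch 2 (purple). The intervals of Klf4 and Klf7 exclude 0 before adjustment, and the purple value lies above the green one for every member except Klf13.

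The batches were compared over the same 8 libraries. Klf10 was lower in all 4 libraries of batch 2 (30.5 to 42.0 CPM) than in all 4 of batch 1 (52.9 to 69.95 CPM), the only member to separate the batches, as did 3.29% of all genes in that direction. The difference was -0.68 ± 0.13 (95% interval -0.98 to -0.37, unadjusted p = 0.00095, adjusted p = 0.353). By edgeR 0 of the 9 members passed, against 0.0395% of all genes (6 genes). DESeq2 called Klf10 (adjusted p = 0.0035), and over all alternatives its adjusted p ranged from 0.0035 to 0.815. At an unadjusted p under 0.05 there were 2 members, Klf10 and Klf3 (-0.24 ± 0.10, unadjusted p = 0.0350), against 9.96% of all genes. The remaining 7 members had intervals that included 0. Over the 9 members the median batch difference was -0.10, with 2 members higher in batch 2. Without control 3 and endostatin 4, both labelled batch 2, that median was 0.05, with 6 members higher. What the label batch stands for is not given, so that day, handling and sequencing cannot be told apart.

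The log2 fold change with endostatin was higher in batch 2 than in batch 1 for 8 of the 9 members, with a median difference of 0.34 on the log2 scale against -0.02 over all genes. The median fell to 0.16 without control 1, 0.17 without control 3, 0.20 without endostatin 3 and 0.14 without control 1 and control 4. Without control 3 and endostatin 4, both labelled batch 2, the median was also 0.17. Within batch 1, 4 members were higher with endostatin, and within batch 2, 8 were. For 5 of the 9 the sign was the same in both batches, as for 47.7% of all genes. By edgeR 0 members passed the interaction test, as did 0% of all genes; at an unadjusted p under 0.05 there was 1, Klf4, against 3.47% of all genes. Klf4 was under 0.05 in 11 of 23 alternatives (unadjusted p up to 0.174), and without control 4 the members under 0.05 were Klf9 and Klf15 instead. DESeq2 and limma-voom also called 0 members.

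Over the 8 libraries the members varied somewhat more than genes of like abundance. The median SD of log2 CPM was 0.24 for the members (0.16 for Klf7 to 0.40 for Klf10) and 0.18 for the 5702 genes with a mean of 30 to 300 CPM. Highest and lowest libraries differed 2.29-fold for Klf10 and 1.37-fold for Klf7.

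The genes most like each member were sought by the root mean square distance of log2 CPM profiles, centred on their means, over the 8 libraries and among 11333 protein-coding genes. Closest of all was Gxylt1 to Klf3 (0.028), followed by Slc43a3 to Klf9 (0.032), Etfa to Klf15 (0.038) and Pfkl to Klf13 (0.039). Second to these came Hsd17b10 for Klf9 (0.040), Chchd2 for Klf15 (0.042) and Aes for Klf13 (0.051). Etfa had 199, 188, 117 and 211 CPM in control and 152, 161, 173 and 192 in endostatin, with its lowest value in control 3, as for Klf15. Klf6 was closest to Ust (0.049) and Tmem87b (0.056), Klf7 to Rarg (0.060) and Baz2b (0.069), Klf2 to H2-K1 (0.090) and Arhgef10 (0.099), and Klf4 to C1s1 (0.092) and Ddr2 (0.093). Klf10 had no close match: Siah2 and H1fx were each at 0.188. Among the members themselves Klf9 and Klf15 were nearest to each other (0.104). These distances describe 8 libraries that share their depth and tissue makeup.

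The rest of the family was lower. Of 8 other Kruppel-like factors, 6 passed the count filter; 2 were higher and 4 lower with endostatin, with a median of -0.06 and none past the threshold. Klf11, Klf12 and Klf16 had medians of 14.4, 12.3 and 12.3 TPM, Klf14 3.71, Klf5 3.24 and Klf8 0.79, and Klf17 was listed at 0 in all 8 libraries. Klf5, which is abundant in epithelia, had 35.5 CPM in control 3, 14.0 in endostatin 4 and 3.67 to 6.85 in the other 6 libraries (-0.56 ± 0.64). Its high libraries were those with high oviduct and uterus markers, whose part in it was not tested. Without control 3 its log2 fold change was 0.44.

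Klf14, an imprinted regulator of fat gene expression, had 6.61, 2.27, 4.20 and 6.85 CPM in control and 8.04, 8.27, 12.1 and 5.58 in endostatin. Endostatin 4 lay inside the control range and the other 3 above it (0.77 ± 0.38, unadjusted p = 0.0749). Klf11 was at 0.15 ± 0.17 and Klf16 at -0.18 ± 0.13.

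Sp factors bind the same GC boxes as the Kruppel-like factors. Sp1 and Sp3 had medians of 44.6 and 45.0 TPM, near that of Klf4, and Sp2, Sp4 and Sp5 had 10.1, 6.74 and 1.05. The 5 tested Sp factors ran from -0.14 to 0.08 with a median of -0.02. Sp1 was at 0.08 ± 0.10 and Sp3 at -0.03 ± 0.09, with 77.2 to 95.9 CPM for Sp3 over all 8 libraries.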

How the data were processed

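RNA depleted of ribosomal RNA was made into strand-specific libraries, per the labels' protocols. Per the submitters' processing notes, the authors used Salmon and the GRCm39 build; the Salmon version, index and settings were not given in the sources used here. Deposited files hold estimated counts and TPM per transcript, 115620 in each, and effective lengths in bases, a score used only for offsets. Identifiers were matched without version to GENCODE M21, which belongs to an older build and served only for names and types; 113710 (98.3%) matched and 1910 were kept as features of their own.

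The estimated counts were added up per gene, rounded to whole numbers, filtered with filterByExpr, scaled by TMM and fitted with edgeR 4.0.16 (R 4.3.3; quasi-likelihood, terms for batch and treatment). A model with an interaction gave the within-batch values. All these tests were two-sided and adjusted by Benjamini-Hochberg over all genes at a threshold of 0.05. Only the endostatin comparison was checked on simulated counts, which held no batch difference. TPM was summed per gene for levels and marker sums. The named genes are the members, the tested genes of both families, the 2 of each other list with the smallest p, and the 2 nearest patterns per member (mean of at least 5 CPM); 1 of the latter is not reported here. The members and lists were chosen with earlier results of these data known. Alternatives covered size factors, filters, DESeq2 1.42.0, limma 3.58.1 with voom, length offsets, log2(TPM + 0.5), a replicate block and left-out libraries. The description of endostatin 4 repeats the read file stub of endostatin 3; their counts differ and the labels were kept. Reads that fit several transcripts are shared out by Salmon, which makes overlapping or near-identical genes uncertain.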

Additional observations from a re-analysis of the deposited data

Results flagged for a closer look

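Klf13 in endostatin 4, at 166.4 CPM, stood far below the other endostatin libraries (218, 218 and 224 CPM); the gap was 0.886 of the group's range, above Dixon's 95% critical value for 4 samples. It was the only such value in 18 groups (9 members in each of 2 groups), where chance gives about 1 in 20. Klf13 had a log2 fold change of -0.13 with all libraries, and of -0.05 without endostatin 4, -0.01 without control 1, -0.04 without control 4, -0.23 without control 2 and -0.22 without endostatin 3.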

How the results depend on the processing

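Of 940 log2 fold changes under alternatives, for 38 values, 918 kept their direction and side of the threshold, 21 changed sign and 1 passed it, and 27 of the 38 never changed sign. The cause of the changes was not tested. The 38 were a selection: for batch only Klf3 and Klf10, and for the interaction only Klf2, Klf4 and Klf9. These counts therefore do not stand for all values. Over the alternatives, 1 to 7 of the 9 members were higher in batch 2. Without control 1 and control 4, which had the most muscle markers, Klf13 was 0.13, Klf15 0.18, Klf11 -0.062, Prodh 0.064 and Sp1 -0.040. Without control 3 and endostatin 4, Klf9 was -0.10, Klf5 0.13 and Mapk7 0.062. With single libraries left out, Klf9 ran from -0.064 (without control 3) to 0.22, Klf10 from -0.025 (control 4) to 0.19, Klf15 from -0.23 (control 3) to 0.074 (control 4), Ctbp2 from -0.29 to 0.019, Klf5 from -0.88 to 0.44, Mapk7 from -0.18 to 0.021 and Sp3 from -0.081 to 0.015. With sample quality weights Klf9 was -0.049, Klf10 -0.032 and Klf5 0.0087, and on log2(TPM + 0.5) Klf15 was 0.017. For endostatin, 0 genes were called, against 4 by DESeq2 and 1 by limma-voom with weights. For batch, 6 were called, against 2 with library sizes alone, 11 without a filter, 171 by DESeq2 (1 of them a member, Klf10), 10 by limma-voom, 20 with weights, 3 among protein-coding genes, 0 to 18 with single libraries left out, 27 without control 3 and endostatin 4 and 0 without control 1 and control 4. Library sizes alone moved the batch median of all genes from 0.01 to 0.13. The interaction gave 0 genes, and 28 by DESeq2. Neighbour pairs called in the level order were 0, and 4 for protein-coding and 6 for most-read transcripts. With a replicate block, 0 genes were called and Klf4 was 0.44 (unadjusted p = 0.0149). Same-numbered libraries correlated at -0.29 to 0.21 after removing group means, and 2 of 8 correlated best with their own number. The main fit therefore did not treat the numbers as pairs, but this check on libraries of varied tissue makeup cannot exclude a pairing.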
